A study of Mus musculus with 6 samples.

Results

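The 8 genes described here are transcripts by which the CA2 and CA3 fields of the mouse hippocampus are recognised. They were chosen by symbol as field markers, with no threshold on their measured values but with earlier results of these data known, and comprise 3 CA2 genes (Rgs14, Amigo2 and Pcp4) and 5 CA3 genes (Bok, Iyd, Cpne4, Coch and Prss23). All 8 were found among the 54752 genes of the count tables, and all 8 passed the filter on low counts that left 18617 genes for testing. CA3 pyramidal cells receive mossy fibers from the dentate gyrus, excite one another through recurrent collaterals and project to CA1 through the Schaffer collaterals. CA2 is a small field between CA3 and CA1 that is known for its role in social memory, for synapses that resist long-term potentiation and for its relative resistance to ischemic and epileptic injury. Its genes include regulators of G protein and calcium signaling that limit plasticity, whereas the CA3 genes in this group encode proteins with unrelated functions.

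RNA came from the whole right hippocampus of 3 sham and 3 BCAS mice, each mouse giving 1 library. All were wild-type male mice, C57BL/6 and 14 weeks old in the labels and C57BL/6 J in the methods, and tissue was taken 3 weeks after surgery. In bilateral common carotid artery stenosis (BCAS) a microcoil was wound around each common carotid artery to reduce blood flow to the brain for a long period, with the narrower coil on the right. Sham mice underwent the operation without coils. The comparison asks how the transcripts of these fields differ after chronic cerebral hypoperfusion. Because the tissue was not dissected into fields, the cells that carried each transcript were not separated, and fewer cells of a type cannot be told apart from less RNA per cell. Levels are given as counts per 1000000 counts (CPM) after edgeR's TMM scaling, differences as log2 fold changes of BCAS over sham with their standard error (SE), and adjusted P values come from edgeR's quasi-likelihood test with Benjamini-Hochberg adjustment over all tested genes. A call means an adjusted P under 0.05, and a differentially expressed gene (DEG) also has an absolute log2 fold change above 1.

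The sham libraries held 34301711 to 35607098 counts and the BCAS libraries 29652456 to 31892083, and 3 counts equaled 0.0875 to 0.0995 CPM. Of all tested genes, 13.2% were called lower and 18% higher in BCAS, and 0.999% were DEGs with lower and 8.47% with higher expression. Groups without overlap, in which every BCAS mouse lay on one side of every sham mouse, were found for 22.7% of tested genes on the lower side and 25.3% on the higher side. BCAS mouse 3 stood apart from the other BCAS mice, with the lowest value for 81.8% of the genes called lower and the highest for 78% of those called higher.

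Among the 8 genes, 5 were called lower in BCAS (Rgs14, Amigo2, Bok, Iyd and Cpne4), 1 was called higher (Coch), and Pcp4 and Prss23 did not pass the test. Over all tested genes, the shares called were 13.2% on the lower side and 18% on the higher side. Rgs14 and Iyd were DEGs, as were 9.46% of tested genes in either direction. The 5 genes called lower had no overlap between the groups, and neither did Coch and Prss23 on the higher side, where 48% of tested genes had no overlap in either direction. The median log2 fold change was -0.82 over the 8 genes and 0.02 over all tested genes. The median was -0.74 for the 3 CA2 genes and -0.89 for the 5 CA3 genes. By rank, 0.188% of tested genes had a lower log2 fold change than Iyd and 0.752% a lower one than Rgs14, while the share was 2.22% for Cpne4, 2.34% for Bok, 3.8% for Amigo2 and 20.5% for Pcp4. On the upper side, 14.8% of tested genes had a higher log2 fold change than Coch and 27.3% a higher one than Prss23.

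**Figure D1:**
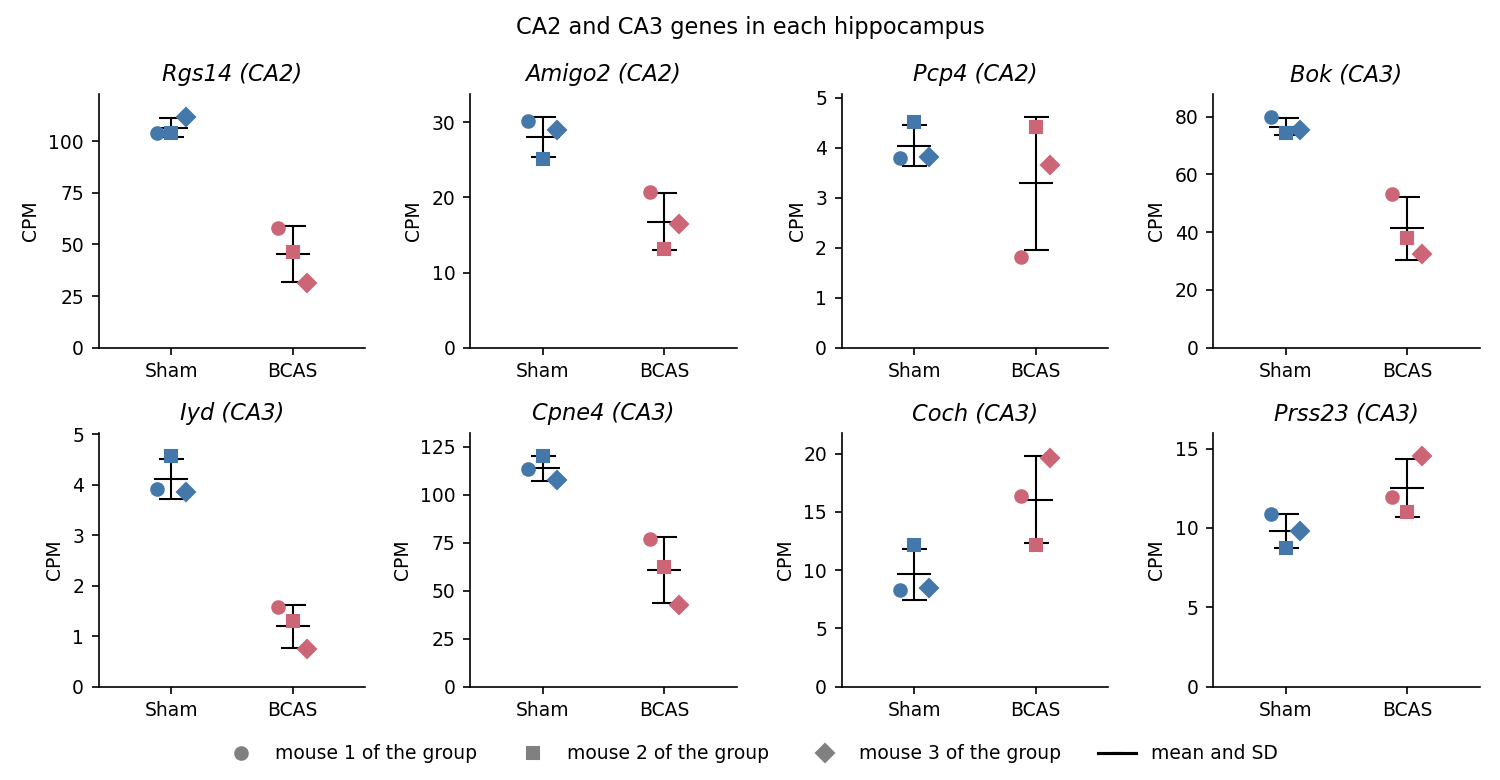
CPM (vertical axes, starting at 0) of the 8 genes in sham and BCAS hippocampi, with the marker shape giving the mouse and black lines the mean and SD of 3 mice. Rgs14, Amigo2, Bok, Iyd and Cpne4 lie lower in every BCAS mouse, Pcp4 overlaps between the groups, and Coch and Prss23 lie higher in every BCAS mouse, Coch by a narrow margin.

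The transcription start regions of genes that moved together are shown first, so that their sequences can be compared. RefSeq start regions of build GRCm38.p6, from 250 bases before to 50 bases after the most upstream start, were matched for 7 of the 8 genes, all except Rgs14. They were searched on both strands for TATAAA (the common core promoter box), CANNTG (E-box), TGACGTCA (cAMP response element), TTCNNNGAA (gamma-activated site) and the core of the interferon-stimulated response element, and no match overlapped another. Capitals mark each match, and all else is in lower case, 5′ to 3′ on the gene's strand. The first 4 belong to genes that were lower in BCAS and the last to Coch, which was higher.
Iyd, chr10:3540024-3540323 (+): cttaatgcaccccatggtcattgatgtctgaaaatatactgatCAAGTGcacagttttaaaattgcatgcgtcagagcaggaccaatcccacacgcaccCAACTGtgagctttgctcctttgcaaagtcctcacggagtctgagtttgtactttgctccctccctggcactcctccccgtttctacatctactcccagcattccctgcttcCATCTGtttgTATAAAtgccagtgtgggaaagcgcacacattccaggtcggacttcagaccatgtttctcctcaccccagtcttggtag
Bok, chr1:93685325-93685624 (+): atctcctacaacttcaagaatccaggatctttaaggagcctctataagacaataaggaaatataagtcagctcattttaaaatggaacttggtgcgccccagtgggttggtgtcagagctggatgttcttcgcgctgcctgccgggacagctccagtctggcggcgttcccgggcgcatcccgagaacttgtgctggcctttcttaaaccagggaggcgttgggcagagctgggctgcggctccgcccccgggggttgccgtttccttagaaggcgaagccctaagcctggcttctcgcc
Cpne4, chr9:104569405-104569704 (+): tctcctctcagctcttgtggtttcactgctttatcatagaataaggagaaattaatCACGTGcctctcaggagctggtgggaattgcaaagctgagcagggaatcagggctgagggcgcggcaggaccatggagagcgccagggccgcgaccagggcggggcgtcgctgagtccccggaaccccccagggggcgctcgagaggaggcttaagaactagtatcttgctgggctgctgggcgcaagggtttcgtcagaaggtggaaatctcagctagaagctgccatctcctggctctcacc
Amigo2, chr15:97247238-97247537 (-): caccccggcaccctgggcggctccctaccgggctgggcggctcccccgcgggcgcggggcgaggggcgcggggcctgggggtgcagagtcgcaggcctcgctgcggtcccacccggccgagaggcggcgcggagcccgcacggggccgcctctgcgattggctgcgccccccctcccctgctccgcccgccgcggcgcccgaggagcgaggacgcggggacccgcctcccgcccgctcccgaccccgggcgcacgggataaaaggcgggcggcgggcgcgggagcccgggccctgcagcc
Coch, chr12:51593091-51593390 (+): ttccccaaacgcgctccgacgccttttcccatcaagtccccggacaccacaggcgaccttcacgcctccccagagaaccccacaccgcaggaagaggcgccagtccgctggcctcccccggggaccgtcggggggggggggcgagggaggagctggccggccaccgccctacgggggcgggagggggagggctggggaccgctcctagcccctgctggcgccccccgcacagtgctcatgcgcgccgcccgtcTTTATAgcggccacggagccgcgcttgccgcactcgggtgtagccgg

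No motif was matched in all 4 of the windows shown for genes lower in BCAS, and the E-box was matched in those of Iyd and Cpne4. Iyd held TATAAA with its first base at -29 relative to the start and E-boxes with first bases at -207, -151 and -39. Cpne4 held 1 E-box, CACGTG, at -194, and the windows of Bok and Amigo2 held no match to any of the 5 motifs. The RefSeq start used for Cpne4, chr9:104569655, lies inside the GENCODE gene, which begins at 104547286. The Amigo2 window had a GC content of 83.3%. The window of Coch held TATAAA on the opposite strand, seen as TTTATA from base 3. Among the other genes, Prss23 held 2 E-boxes and Pcp4 1. Over all 32851 start regions of the same length, 13.6% held TATAAA and 72.3% an E-box, so that an E-box is common in such windows. The remaining motifs were found in none of the 7 windows, against 1.79% of all windows for the cAMP response element, 3.44% for the interferon-stimulated response element core and 8.3% for the gamma-activated site. A match describes letters only, and no binding was measured.

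Rgs14 (chr13:55369732-55384687, plus strand, build mm10) encodes a scaffold that binds inhibitory G alpha subunits and H-Ras and that restrains plasticity at CA2 synapses. Its CPM was 103.9, 103.9 and 112 in sham mice 1 to 3 and 58.1, 46.2 and 31.3 in BCAS mice 1 to 3. The sham mice lay close together, and every BCAS mouse was far below them, with BCAS mouse 3 the lowest. The mean fell from 107 ± 4.63 to 45.2 ± 13.5 CPM (SD, n = 3), to 42.4% of the sham mean. The log2 fold change was -1.24 (SE 0.19, edgeR adjusted P = 0.00150), with a 95% interval from -1.66 to -0.82. Among the 3 CA2 genes of this group, Rgs14 had the largest fall.

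Amigo2 (chr15:97244125-97247287, minus strand) encodes a leucine-rich-repeat adhesion protein of CA2 and the adjoining part of CA3. Its CPM was 30.2, 25.1 and 28.9 in sham mice and 20.7, 13.2 and 16.4 in BCAS mice. All BCAS mice were below all sham mice, and BCAS mouse 2, rather than mouse 3, was the lowest. The mean fell from 28.1 ± 2.68 to 16.8 ± 3.80 CPM (SD, n = 3), with a log2 fold change of -0.74 (SE 0.16, edgeR adjusted P = 0.00943). Amigo2 is also known as a gene of reactive astrocytes, and all 8 of 8 astrocyte markers were higher in BCAS, with a summed level of 3722 to 4060 CPM in sham mice and 8890 to 9522 CPM in BCAS mice. The part of astrocytes in the Amigo2 level was not tested. Of its exonic bases, 58 (1.83%) overlap Pced1b on the opposite strand.

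Pcp4 (chr16:96467606-96525793, plus strand) encodes PEP-19, a small IQ-motif protein that regulates calmodulin. Its CPM was 3.81, 4.52 and 3.82 in sham mice and 1.82, 4.41 and 3.65 in BCAS mice, from 129, 151 and 131 counts and 59, 133 and 114 counts. BCAS mouse 1 alone was low, and the other BCAS mice were within or next to the sham range. The log2 fold change was -0.30 (SE 0.30, edgeR adjusted P = 0.492), and its 95% interval from -0.99 to 0.39 holds both a fall as large as that of Amigo2 and a rise. Without BCAS mouse 1 the log2 fold change was -0.01 (edgeR adjusted P = 0.985), and without BCAS mouse 2 it was -0.57 (edgeR adjusted P = 0.192).

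The level of Pcp4 is counted on part of its transcript. A read was not counted where it fitted several genes, and 243 exonic bases of Pcp4 (23.7%) also belong to an Igsf5 model on the same strand, which had 0 counts in all 6 libraries. In the 641-base transcript with 3 exons, 37.9% of bases are shared, and only 100 of 492 positions of a 150-base read (20.3%) avoid them. The shared middle exon, chr16:96493816-96493867 (plus strand, mm10), is 52 coding bases long and is printed to show what could not be counted, in capitals because every base is shared.
Pcp4 shared exon: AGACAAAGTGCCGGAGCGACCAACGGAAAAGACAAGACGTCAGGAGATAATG
The other shared segment is 191 bases at chr16:96525390-96525580. Reads on these bases were left out in both groups, so the CPM of Pcp4 is low by an amount that was not measured. Pcp4 is also expressed in dentate granule cells and thalamus, and 5 thalamic markers summed to 61.2 to 66.5 CPM in sham mice and 79.3 to 131.5 CPM in BCAS mice. Of these 5, edgeR called Lef1 (log2 fold change 1.03) and Prkcd (0.91) higher, while Tcf7l2 (0.49), Rorb (0.46) and Slitrk6 (-0.40) did not pass the test. With library totals Rorb passed (edgeR adjusted P = 0.0329), and DESeq2 called 3 of the 5 higher. The part of dentate granule cells and thalamus in the Pcp4 level was not tested.

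The CA3 genes Bok, Iyd and Cpne4 were lower in all BCAS mice. Bok (chr1:93685660-93695764, plus strand), a BCL-2 family protein of the same group as Bax and Bak, had 80.0, 74.3 and 75.5 CPM in sham mice and 53.4, 38.0 and 32.5 CPM in BCAS mice. BCAS mouse 1 was the closest to the sham range and mouse 3 the farthest. The mean fell from 76.6 ± 3.04 to 41.3 ± 10.8 CPM (SD, n = 3), with a log2 fold change of -0.89 (SE 0.16, edgeR adjusted P = 0.00354).

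Iyd (chr10:3540240-3554877, plus strand), the iodotyrosine deiodinase that recycles iodide in the thyroid, had 3.93, 4.58 and 3.85 CPM in sham mice and 1.57, 1.29 and 0.737 CPM in BCAS mice. These levels rest on 133, 153 and 132 counts and on 51, 39 and 23 counts. The highest BCAS mouse was far below the lowest sham mouse. The mean fell from 4.12 ± 0.402 to 1.20 ± 0.424 CPM (SD, n = 3), to 29.1% of the sham mean. Iyd had the largest fall of the 8 genes, with a log2 fold change of -1.77 (SE 0.29, edgeR adjusted P = 0.00230).

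Cpne4 (chr9:104547286-105034544, plus strand), a copine that binds phospholipid in the presence of calcium, had 113, 120.3 and 108 CPM in sham mice and 76.9, 62.5 and 42.8 CPM in BCAS mice. The groups did not overlap, and BCAS mouse 3 was again the lowest. The mean fell from 114 ± 6.43 to 60.7 ± 17.1 CPM (SD, n = 3), with a log2 fold change of -0.90 (SE 0.18, edgeR adjusted P = 0.00562). Without BCAS mouse 1, Cpne4 (-1.11) and Bok (-1.12) passed the DEG threshold as well, giving 4 DEGs. The share of DEGs over all tested genes is not given for that fit, so the 4 cannot be set against it.

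Coch and Prss23 went the other way. Coch (chr12:51593341-51605771, plus strand), cochlin, a secreted matrix protein best known from the inner ear, had 8.32, 12.1 and 8.45 CPM in sham mice and 16.4, 12.1 and 19.7 CPM in BCAS mice. Sham mouse 2 and BCAS mouse 2 were almost equal, at 12.12 and 12.13 CPM, and the other mice were clearly apart. The mean rose from 9.63 ± 2.16 to 16.1 ± 3.77 CPM (SD, n = 3), with a log2 fold change of 0.74 (SE 0.21, edgeR adjusted P = 0.0267). The call was lost without sham mouse 1 (edgeR adjusted P = 0.103), sham mouse 3 (0.104), BCAS mouse 1 (0.0610) or BCAS mouse 3 (0.0904), and its direction was kept in each. Vascular and fibroblast markers summed to 480 to 611 CPM in sham mice and 703 to 816 CPM in BCAS mice. In that list 8 of 13 were called higher, with Col1a1, a fibroblast collagen, at a log2 fold change of 2.13 (edgeR adjusted P = 0.00409). Their part in the Coch level was not tested.

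Choroid plexus markers varied widely between libraries of both groups, and their levels are set beside those of Coch. Their sum was 1010, 4171 and 72.4 CPM in sham mice 1 to 3 and 6070, 49.0 and 3298 CPM in BCAS mice 1 to 3, and 0 of 8 were called by edgeR, DESeq2 or limma-voom, nor did any have an unadjusted P under 0.05. Coch was highest in sham mouse 2, with the largest sum of its group, and lowest in BCAS mouse 2, with the smallest. The order was not the same in the other mice: BCAS mouse 1, with the largest sum of all, was below BCAS mouse 3 for Coch, and sham mouse 1 was slightly below sham mouse 3. Without sham mouse 2 the log2 fold change of Coch was 0.93 (edgeR adjusted P = 0.0180), and without BCAS mouse 2 it was 0.90 (edgeR adjusted P = 0.00711). The part of choroid plexus in the Coch level was not tested.

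Prss23 (chr7:89507783-89527187, minus strand), a secreted serine protease, had 10.9, 8.74 and 9.82 CPM in sham mice and 11.97, 11.01 and 14.6 CPM in BCAS mice. The lowest BCAS mouse was just above the highest sham mouse. The means were 9.81 ± 1.06 and 12.5 ± 1.83 CPM (SD, n = 3). The log2 fold change of 0.35 (SE 0.15, 95% interval from 0.016 to 0.69) did not pass the test (edgeR adjusted P = 0.104). Leaving out each mouse put Prss23 at 0.22 (without BCAS mouse 3) to 0.43, never called (edgeR adjusted P from 0.0625 to 0.311). Of its exonic bases, 22.9% overlap Prss23os on the opposite strand. The counts did not use strand, and reads fitting both genes were not counted, so the level of Prss23 rests on the rest of its exons.

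Per kilobase of exon, the order of the genes differed between the groups. In RPKM (CPM per kilobase), sham mice had 41.6 ± 1.65 for Bok, 25.1 ± 1.09 for Rgs14, 20.7 ± 1.17 for Cpne4 and 8.88 ± 0.846 for Amigo2 (SD, n = 3), and neighbours in this order did not overlap. The lower 4 genes were closer, at 3.95 ± 0.398 for Pcp4, 3.21 ± 0.719 for Coch, 2.60 ± 0.282 for Prss23 and 2.54 ± 0.248 for Iyd, and each overlapped its neighbour. The levels of Pcp4, Prss23 and, with 1.83% of its exonic bases shared, Amigo2 are lower limits in this order, since reads on shared exons were not counted. In BCAS mice Bok still led with 22.5 ± 5.88 RPKM, followed by Cpne4 with 11.04 ± 3.12 and Rgs14 with 10.7 ± 3.18, which overlapped. Coch, with 5.36 ± 1.26 RPKM, reached the level of Amigo2, with 5.31 ± 1.20. Iyd came last with 0.739 ± 0.261 RPKM, below Prss23 with 3.32 ± 0.487 and Pcp4 with 3.21 ± 1.30.

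Other genes of the same fields were examined from lists chosen by name. Of 7 other CA2 genes, 2 were called lower and 0 higher, with a median log2 fold change of -0.36. Ptpn5, a striatal-enriched tyrosine phosphatase, had a log2 fold change of -0.36 (edgeR adjusted P = 0.0357), and this call was lost when library totals replaced TMM (edgeR adjusted P = 0.0603). Avpr1b, the vasopressin receptor of CA2 cells, had 25, 12 and 12 counts in sham mice and 2, 0 and 0 in BCAS mice. Avpr1b was at least 5.02-fold lower in BCAS, taking 3 counts in each BCAS library as the limit. Ntf3, neurotrophin-3, was at -0.65 without overlap between the groups and did not pass the test (edgeR adjusted P = 0.0560, or 0.0490 with RLE scaling). Necab2 (-0.38), Cacng5 (-0.32), Stard5 (-0.11) and Map3k15 (0.62) did not pass either, and their groups overlapped. No other CA2 gene was called higher by DESeq2 or limma-voom, or at an unadjusted edgeR P under 0.05, where the count was also 0. On the lower side DESeq2 and limma-voom each called 3 of the 7, and 4 had an unadjusted edgeR P under 0.05. Shares over all tested genes are not given for these counts.

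Of 7 other CA3 genes, 2 were called lower and 0 higher, with a median log2 fold change of -0.55. Dkk3, a secreted glycoprotein of the Dickkopf family, was at -0.62 (edgeR adjusted P = 0.00220), and Grik4, a kainate receptor subunit of mossy fiber synapses, was at -0.61 (edgeR adjusted P = 0.0488). The call of Grik4 was lost with library totals (-0.54, edgeR adjusted P = 0.0731). Nptx1 (-0.56), Cdh24 (-0.55), Homer3 (-0.43), Socs2 (-0.33) and Nectin3 (-0.25) did not pass the test, and all 7 values were below 0. Nptx1 had no overlap between the groups (edgeR adjusted P = 0.0606). DESeq2, limma-voom and unadjusted edgeR P values also gave 0 genes higher. DESeq2 and limma-voom each called 3 of the 7 lower, and 4 were lower at an unadjusted edgeR P under 0.05. Shares over all tested genes are not given for these counts either.

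**Figure D2:**
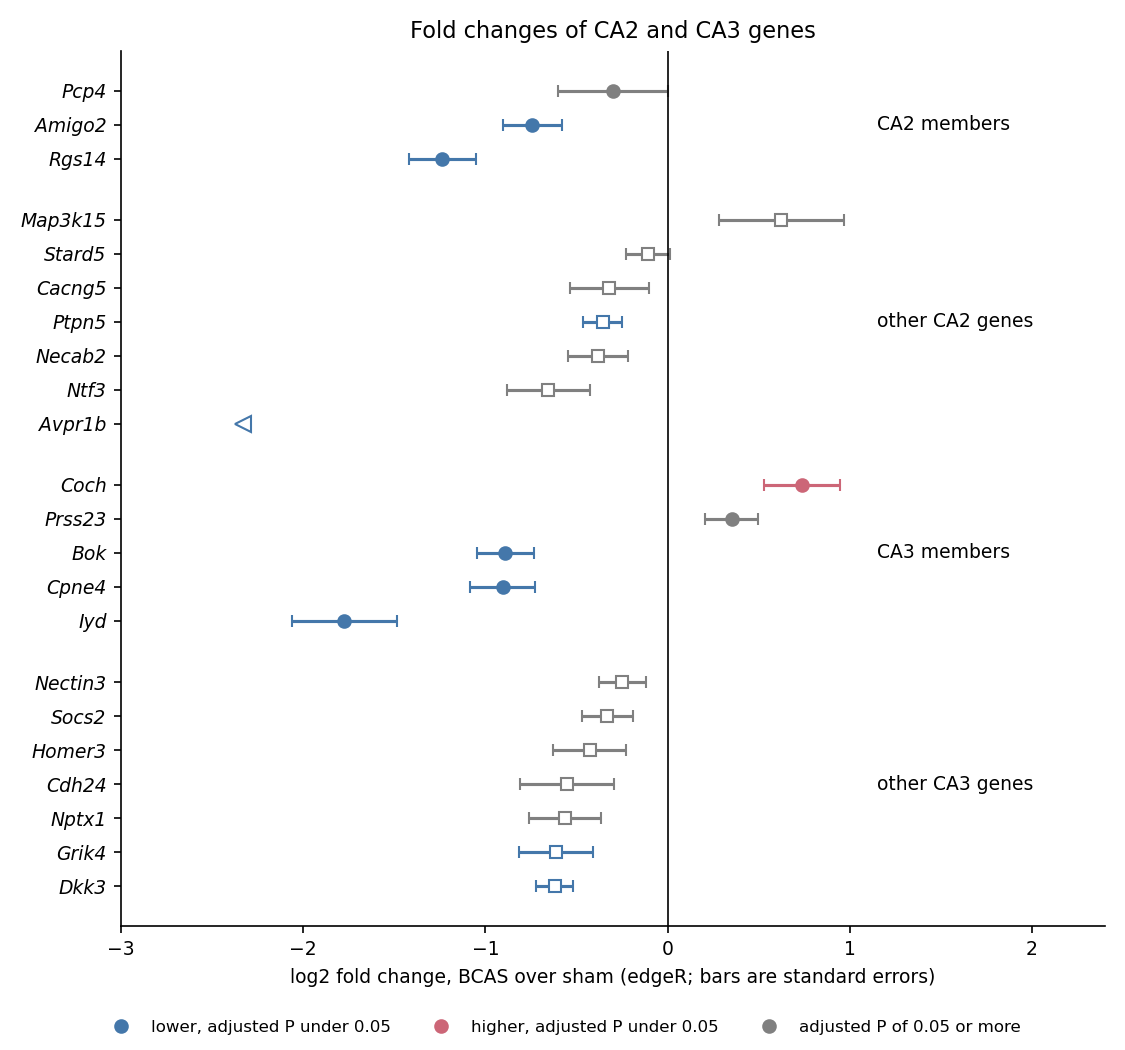
Log2 fold changes of BCAS over sham (horizontal axis) with SE bars for the 8 genes (filled circles) and for 7 other CA2 and 7 other CA3 genes (open squares), colored by the edgeR call. Avpr1b is drawn as a triangle at its limit of at least 5.02-fold lower, so its value lies there or farther left. Iyd (-1.77) and Rgs14 (-1.24) lie farthest to the left of the remaining genes.

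Lists of other hippocampal neurons differed in how many of their genes were called lower, and in none of them was a gene called higher. Of 10 genes of a pan-neuronal list, of which Slc17a7, Camk2a and Neurod6 are genes of excitatory neurons, 8 were called lower by edgeR. DESeq2 called 10 of them lower and limma-voom 9. The median log2 fold change was -0.65, from -1.56 for Neurod6, a transcription factor, to -0.34 for Map2, a dendritic microtubule protein. Map2 did not pass the test (edgeR adjusted P = 0.0555, or 0.0470 with RLE scaling). The summed level of the 10 genes was 11269, 11599 and 11867 CPM in sham mice and 7887, 8503 and 5896 CPM in BCAS mice. Of 8 CA1 genes, 6 were called lower (median -0.73), with the largest fall for Spink8 (-2.15). Of 9 interneuron genes, 6 were called lower (median -0.46), from Sst (-1.10) to Vip (-0.03, not called). Of 10 dentate granule genes, 4 were called lower, from Tdo2 (-1.50) to Glis3 (0.33, not called), and the median was -0.10. All 10 microglial genes were called higher (median 3.08), with summed levels of 317 to 334 CPM in sham mice and 2229 to 3689 CPM in BCAS mice. Cd68, a lysosomal protein of phagocytes, had the largest rise of the microglial genes (4.17). Of 8 oligodendrocyte genes, edgeR and limma-voom called 0 and DESeq2 called 1 higher, and 1 had an unadjusted edgeR P under 0.05, with a median of 0.13. The part of a changed cell composition in the values of the 8 genes was not tested.

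**Figure D3:**
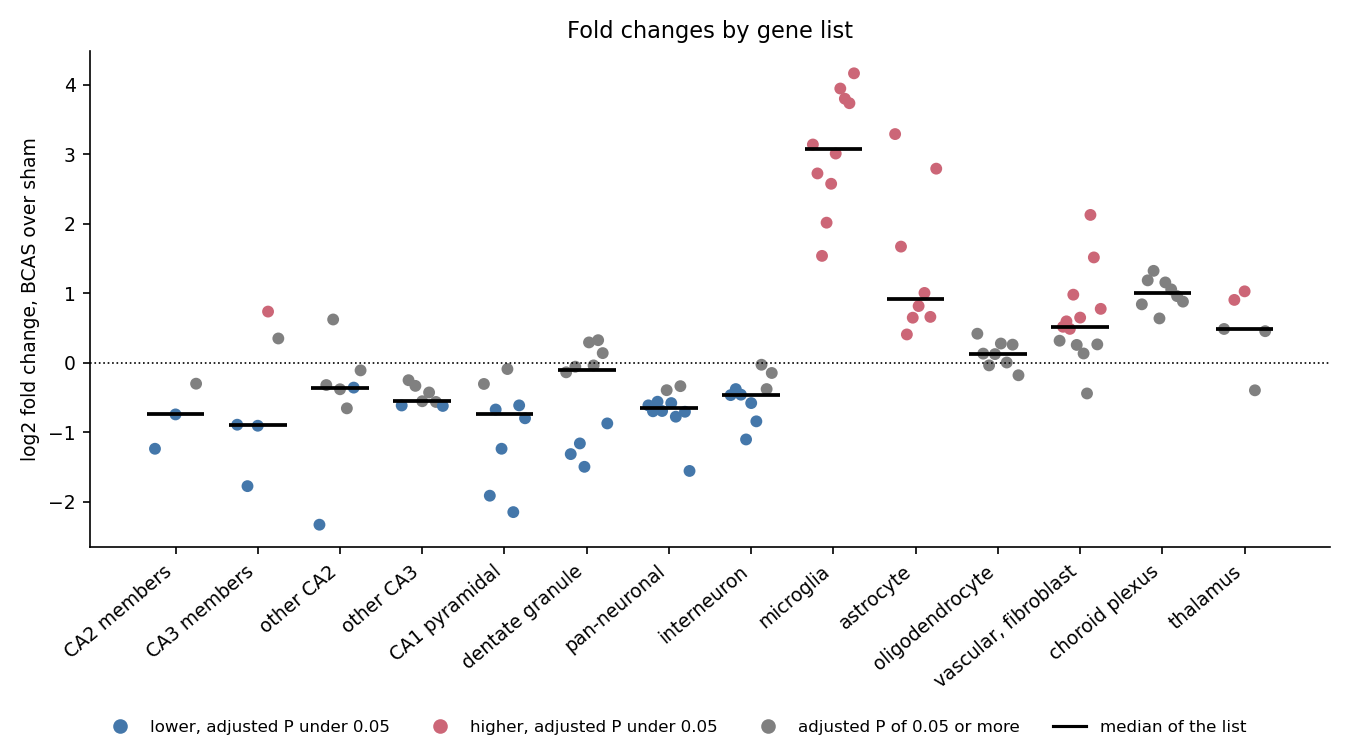
Log2 fold changes of BCAS over sham (vertical axis) for each tested gene of the CA2, CA3 and cell type lists, colored by the edgeR call, with bars at list medians. The CA2 (-0.74) and CA3 (-0.89) medians of the 8 genes lie near the CA1 (-0.73) and pan-neuronal (-0.65) medians. Avpr1b is drawn at its limit of at least 5.02-fold lower.

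The 8 genes were then set against the pan-neuronal sum of the same library. This comparison was chosen after seeing the data, and its values are CPM per 1000 CPM of the 10 pan-neuronal genes. Rgs14 remained lower, at 9.20 ± 0.238 in sham mice and 6.04 ± 1.16 in BCAS mice (SD, n = 3), and so did Iyd, at 0.356 ± 0.0359 and 0.159 ± 0.0374, both without overlap. For Bok (6.62 and 5.59), Cpne4 (9.83 and 8.12), Amigo2 (2.43 and 2.32) and Pcp4 (0.350 and 0.456) the groups overlapped. Coch (0.832 and 2.28) and Prss23 (0.848 and 1.76) were higher in every BCAS mouse. When edgeR was scaled to the pan-neuronal list, the median of all tested genes moved from 0.02 to 0.69. The shift applies to every gene, and it placed Ptpn5 (0.30), Dkk3 (0.04) and Grik4 (0.03) above 0. On this scale Rgs14 was at -0.61 (edgeR adjusted P = 0.00843) and Iyd at -1.16 (edgeR adjusted P = 0.00799). Cpne4 (-0.28), Bok (-0.25) and Amigo2 (-0.07) were no longer called, and Pcp4 was at 0.38. Coch was at 1.45 (edgeR adjusted P = 0.00136) and Prss23 at 1.05 (edgeR adjusted P = 0.00463), and both were called higher. On this scale 0.435% of all tested genes were called lower, 60.9% were called higher and 26.1% were DEGs, so a call on the higher side was shared with most genes. The excitatory neuron genes Slc17a7, Camk2a and Neurod6 made up 41.5% to 43.0% of the list sum in the sham group and 37.2% to 42.8% in the BCAS group. Scaled to the 7 other genes of the list, Rgs14 (-0.67) and Iyd (-1.21) were again called lower and Coch (1.37) and Prss23 (0.97) higher, and Cpne4 (-0.34), Bok (-0.31), Amigo2 (-0.13) and Pcp4 (0.29) were not called. The corresponding shares of all tested genes were 0.559% lower, 56.8% higher and 22.8% DEGs. On this second scale Ptpn5 was at 0.22, and Grik4 and Dkk3 were both at -0.03.

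**Figure D4:**
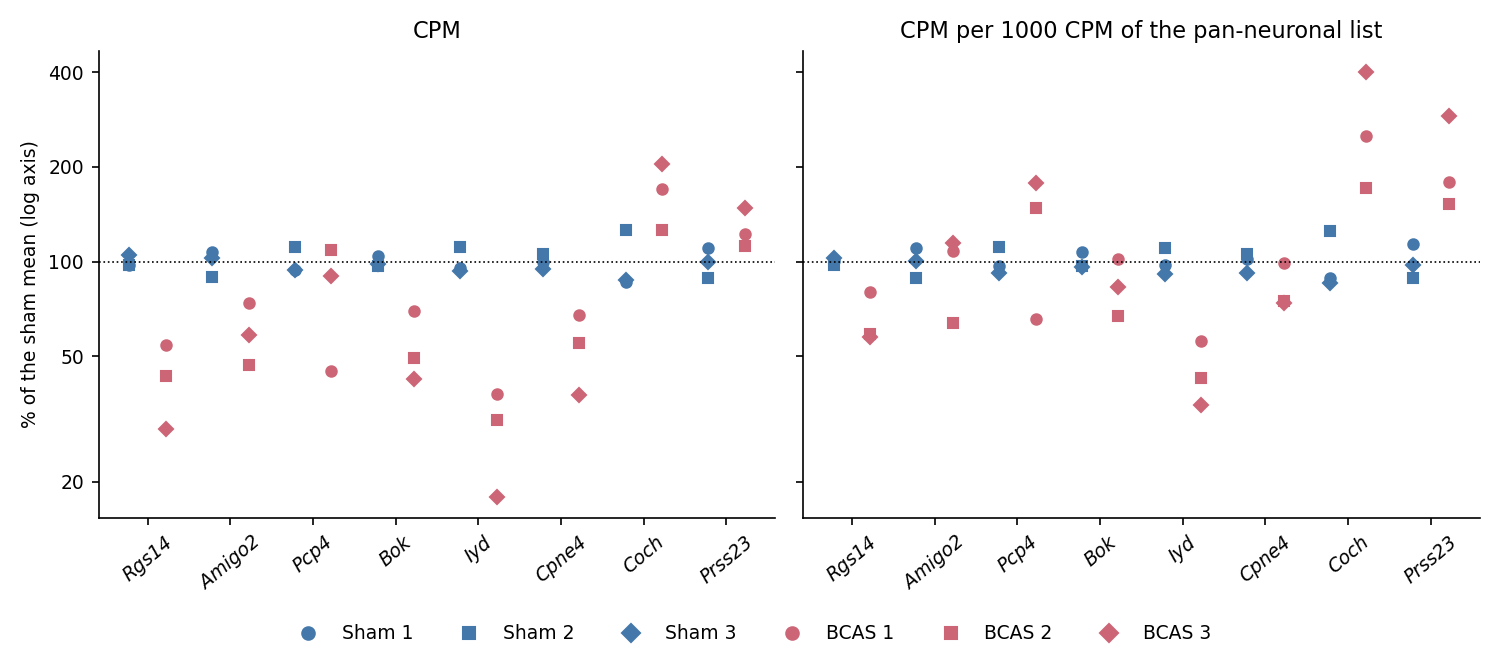
Each library's value as a percentage of the sham mean (log axis) for the 8 genes, in CPM (left) and per 1000 CPM of the pan-neuronal list (right), with marker shapes for mice. On the right, Rgs14 and Iyd keep all BCAS mice below the sham mice, Bok, Cpne4, Amigo2 and Pcp4 overlap, and Coch and Prss23 lie above.

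Relatives of the 8 genes moved in both directions. RGS proteins of the R12 subfamily share a domain that speeds GTP hydrolysis, and of their genes Rgs10 rose from 20.2 ± 1.87 to 69.6 ± 12.2 CPM (SD, n = 3; log2 fold change 1.78, edgeR adjusted P = 3.9e-05). Rgs12 was at 0.22 and did not pass the test (edgeR adjusted P = 0.120, or 0.0365 with library totals). Among 10 partners of RGS14 in G protein and Ras signaling, 4 were called lower and 2 higher. Camk2b (-0.73), Gnai1 (-0.68), Hras (-0.53) and Braf (-0.43) were lower, and Gnai2 (0.74) and Gnai3 (0.47), which encode the other inhibitory alpha subunits, were higher. Gnao1 (-0.22), Rap2a (-0.21) and Ric8a (0.01) did not pass the test. The inhibitory alpha subunit genes therefore did not share a direction.

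Of the AMIGO adhesion genes, Amigo1 was also lower (-0.29, edgeR adjusted P = 0.0210), and Amigo3, with 4.36 CPM in either group, was at 0.00. Among 7 genes of PEP-19, its relatives and calmodulin, 3 were called lower, namely Calm2 (-0.73), Nrgn (-0.64) and Calm3 (-0.61), of which Nrgn encodes neurogranin, an IQ-motif protein like PEP-19. Gap43 (-0.31) and Pcp4l1 (0.04) did not pass the test. Calm2 and Calm3 encode the same calmodulin protein, and both were called lower.

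Of 9 copine genes 8 were tested, and 4 were called lower and 1 higher. Cpne6 (-0.79, edgeR adjusted P = 0.0108), a copine of excitatory neurons, Cpne7 (-0.64, edgeR adjusted P = 0.0417, or 0.0552 with library totals) and Cpne8 (-0.53) fell with Cpne4, and Cpne3 rose (1.09, edgeR adjusted P = 2.7e-04). Cpne9 (-0.35), Cpne5 (-0.30) and Cpne2 (-0.12) did not pass the test, and Cpne1 had too few counts to be tested. In the BCL-2 effector group, Bak1 rose (0.57, edgeR adjusted P = 0.0373), Bax was at 0.21 (edgeR adjusted P = 0.189), and Bok was lower. The direction of Bok was thus opposite to that of Bak1. Scaled to the pan-neuronal list, Amigo1 (0.37), Braf (0.24), Cpne8 (0.13), Hras (0.12) and Calm3 (0.04, or -0.03 with the 7 genes) had log2 fold changes above 0.

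The genes with the most similar pattern were sought among 12417 tested genes with a mean of at least 5 CPM, by the root mean square difference of log2 CPM over the 6 libraries after centring each gene on its mean. The nearest gene was Matn2 for Rgs14 (0.065), Ntf3 for Amigo2 (0.082), Lrrn2 for Bok (0.050), Neurod6 for Iyd (0.17) and Prdm8 for Cpne4 (0.065). It was Gfra2 for Pcp4 (0.13), Gas6 for Coch (0.076) and Tchp for Prss23 (0.039). Next came Gabra5 and Stum for Rgs14, Bves and Dusp4 for Amigo2, Ptk2b and Epha4 for Bok, Hpca and 3300002P13Rik for Iyd, and Wscd2 and Prkca for Cpne4. For the remaining genes these were Rnd1 and Tbr1 for Pcp4, Cd82 for Coch, and Ntn1 and Clic4 for Prss23. Nearness is a description of 6 libraries that share their depth and group differences. Pcp4 and Iyd, with the fewest counts, had the largest distances to their nearest genes.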

How the data were processed

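The authors trimmed reads with Trim Galore, aligned them to mm10 with HISAT2 and counted them with featureCounts, and deposited the raw count of each gene per library, without normalization. The methods name featureCounts 1.6.3 with RefSeq genes, whereas the file headers name 2.0.3 with GENCODE genes. Per the headers, both mates of a pair were counted as reads, strand was ignored, and reads fitting several places or several genes were not counted, which lowers genes with shared exons. Groups and mouse numbers were taken from the labels. No sequencing batch is given there.

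Counts were filtered with filterByExpr, scaled by TMM and tested with edgeR 4.0.16 (R 4.3.3) without covariates, 3 BCAS against 3 sham mice. The prior count for log2 CPM was 2. Limits of 3 counts cover counting error only. The code was tested on simulated counts. Alternatives were DESeq2 1.42.0, limma-voom (limma 3.58.1), RLE scaling, library totals, other filters, halved and thinned counts, a replicate block, glmTreat, leaving out each mouse, and scaling to a pan-neuronal list or to 7 of its genes, added after seeing the data. Genes and lists were chosen with earlier results of these data known. Named are the 8 genes, their relatives, other CA2 and CA3 genes, the largest rise and fall of each cell type list at a mean of at least 1 CPM, the marker genes at the limit of detection, and the 3 genes nearest in pattern. The thalamic genes other than Lef1 and Slitrk6, and Slc17a7 and Camk2a, were named after their values were seen, and some genes that the rule selects are not reported here. Positions are GENCODE genes of GRCm38 (mm10), and start regions come from RefSeq.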

Additional observations from a re-analysis of the deposited data

How the results depend on the processing

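Of the 8 genes, 5 were called lower in the main comparison and under every alternative except the scalings to neuronal genes, chosen after seeing the data. Scaling to the pan-neuronal list gave 2 lower, 2 higher, 3 DEGs and a median log2 fold change of -0.16 (of all tested genes 0.435% were lower, 60.9% higher and 26.1% DEGs), and turned Pcp4 to 0.38. Scaling to 7 of its genes gave 2 lower, 2 higher, 2 DEGs and a median of -0.22 (0.559% lower, 56.8% higher and 22.8% DEGs), with Pcp4 at 0.29. The 1 gene called higher, Coch, was lost with glmTreat at 0.25 and with the replicate block, each giving 0 genes higher (at an unadjusted P under 0.05, 1 and 2 genes). Leaving out each mouse gave 0 to 1 genes higher, 2 to 4 DEGs and a median of -1.02 to -0.72, the largest fall and the 4 DEGs without BCAS mouse 1. Shares over all tested genes are not given for these fits. Residual correlations of same-numbered sham and BCAS mice were 0.036, -0.314 and -0.158. With 3 mice per group, and no other pairs compared, these values cannot show whether the numbers pair the mice. The fit with the replicate block gave 5 genes lower and 2 DEGs. Library totals moved the median of all tested genes to 0.0945. Iyd and Pcp4 had the fewest counts (23 to 153 per library), and with counts halved their SE was 0.27 and 0.30.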
